A study of Homo sapiens with 28 samples.

Results

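The comparison described here sets the conjugated triene CLA18:3 against vehicle in HT-1080 cells. Its members were chosen by their labels alone, as the 4 libraries labelled CLA18:3 and the 4 labelled DMSO, which is 8 of the 28 libraries of the series. All genes entered, and 15086 of the 60286 genes listed had enough counts to be tested. HT-1080 is a human fibrosarcoma line, a tumour of connective tissue, and is described in the labels as wild type. CLA18:3 is a conjugated fatty acid with 18 carbons and 3 double bonds, given at 5 µM overnight. Which isomer was used is not given in the sources used here. DMSO is the solvent given to the control cells. The other groups of 4 were 10 nM RSL3, 80 µM linoleic acid (LA), 80 µM of the conjugated diene CLA18:2, RSL3 with LA, and RSL3 with CLA18:2. RSL3 is an inhibitor of GPX4, a selenium enzyme that turns lipid peroxides into alcohols. Doses follow the design text in µM, because the sample labels write mM. CLA18:3 was tested at a single dose and a single time in a single cell line, and the series text calls the replicates independent.

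Polyunsaturated acids are taken up into membrane phospholipids, where they can be oxidised by a radical chain that GPX4 and other enzymes interrupt. Ferroptosis is the cell death that follows when lipid peroxides build up, and HT-1080 cells are a standard line for its study. Reactive lipid products bind thiol groups and are met by known transcriptional programmes. Among these are the NRF2 programme of antioxidant and detoxifying enzymes, the ATF4 programme of amino acid supply, the unfolded protein response of the endoplasmic reticulum (ER), and the heat shock response.

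The 8 libraries held 17687170 to 23075684 counts. The CLA18:3 libraries varied more among themselves than the DMSO libraries. Their biological coefficient of variation, the spread beyond counting noise, was 19.9%, against 4.51% in DMSO and 7.26% to 15.1% in the other 5 groups. Pairs of CLA18:3 libraries correlated at 0.964 to 0.975 in log2 level over the tested genes, pairs of DMSO libraries at 0.992 to 0.993, and a CLA18:3 with a DMSO library at 0.966 to 0.975, no lower than within CLA18:3. Over genes of at least 20 CPM these ranges were 0.986 to 0.992, 0.996 to 0.998 and 0.962 to 0.968. These correlations describe the libraries and are no test. Spread was largest among weakly expressed genes in both groups, and it was wider in CLA18:3 at every level. The median coefficient of variation under 2 CPM (counts scaled to a common library size) was 54.9% in CLA18:3 and 27.2% in DMSO, and at 100 CPM and over it was 5.15% and 3.02%. Thinned to 17687170 counts each, the CLA18:3 libraries held 19435 ± 840 genes with a count (SD, n = 4) and the DMSO libraries 22979 ± 112. This difference passed a two-sided exact permutation test (p = 0.0286, the smallest that 4 against 4 allows, adjusted p = 0.0476 over 5 library measures). With at least 5 counts asked for, the ranges were 16611 to 16828 and 16711 to 16823 genes. On the second principal component CLA18:3 replicates 1 and 2 lay at 48.1 and -46.4, while the other 6 libraries lay between -3.02 and 4.19. Of connective tissue markers 7 of 8 were expressed, at a summed 9769 to 10915 CPM in CLA18:3 and 9168 to 10484 CPM in DMSO. Of 12 blood markers 5 were at 0 in all 8 libraries, among them PTPRC, MS4A1, HBA1 and TYROBP, and 2 had enough counts to be tested, CORO1A and FCER1G, with neither called. The blood list summed to 7.77 to 16.6 CPM with CLA18:3 and 12 to 16.4 CPM in DMSO, and the endothelial list, with 2 of 8 tested, to 17.8 to 25.6 CPM and 19.4 to 20.6 CPM. The part of these genes in any result was not tested.

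**Figure D1:**
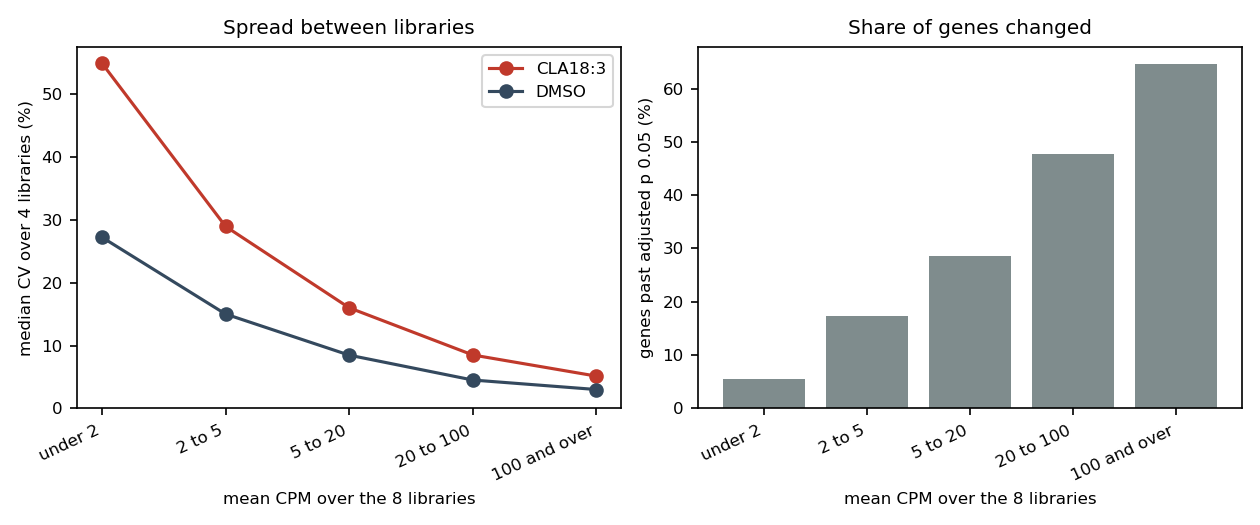
Left, the median coefficient of variation over 4 libraries (y axis, percent) for tested genes grouped by mean CPM (x axis), with CLA18:3 in red and DMSO in dark blue. Right, the percent of genes in each class past adjusted p 0.05 between the groups. The spread in CLA18:3 falls from 54.9% to 5.15% as the level rises, and the share of genes called rises from 5.44% to 64.6%.

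CLA18:3 changed 5178 of 15086 genes at adjusted p under 0.05 (34.3%). Of these, 2769 were higher (18.4%) and 2409 lower (16%). Most changes were small. At least 2-fold changes numbered 388 (2.57%), of which 232 were higher (1.54%) and 156 lower (1.03%), and 41 genes rose and 24 fell at least 4-fold. All 4 CLA18:3 libraries lay above all 4 DMSO libraries in 2683 genes (17.8%) and below them in 2440 (16.2%). The direction of the many small changes rests on the scaling between libraries. Scaled by library totals alone, which moves the median log2 change of all genes from 0.00 to -0.07, 2140 genes were higher and 3290 lower. With CLA18:3 replicates 1 and 2 both left out, 5623 genes passed, 2871 higher and 2752 lower, and 4515 of the 5178 calls remained. In bulk RNA, fewer cells of a type and less RNA per cell cannot be told apart.

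Among genes with a mean of at least 2 CPM, those that rose most were FOS, a subunit of the AP-1 transcription factor, and GCNT3, a glycosyltransferase that branches mucin-type glycans. FOS lay at 34.4, 37.7, 28.1 and 29.6 CPM in the CLA18:3 libraries and at 0.623, 0.504, 0.594 and 0.166 CPM in DMSO. GCNT3 lay at 8.92, 9.65, 11.8 and 8.31 CPM with CLA18:3 and at 0.208, 0.229, 0.0849 and 0.0554 CPM without. Neither gene overlapped between the groups, and each was almost silent in DMSO, with 3 to 14 counts per library for FOS and 1 to 5 for GCNT3. The log2 fold change was 6.05 ± 0.20 for FOS (SE, 95% interval 5.63 to 6.48, edgeR adjusted p = 3.2e-13) and 6.0 ± 0.31 for GCNT3 (5.35 to 6.65). HMOX1, heme oxygenase 1, came next and was the only 1 of the 3 with a substantial level in DMSO. Its CLA18:3 libraries held 907, 1007, 1012 and 858 CPM and its DMSO libraries 29.4, 26.1, 26.9 and 24.2 CPM, a 35.5-fold rise (5.15 ± 0.07 on the log2 scale, adjusted p = 4.2e-19). The aldo-keto reductases AKR1B10 and AKR1C1, which reduce reactive aldehydes, rose by 4.60 ± 0.30 and 4.17 ± 0.39 from 4 to 9 counts per DMSO library. With such DMSO counts, FOS, GCNT3, AKR1B10 and AKR1C1 could enter the test only by their counts with CLA18:3. The chemokines CXCL3 (3.99 ± 0.22) and CXCL8 (3.64 ± 0.18), the NRF2 target OSGIN1 (3.25 ± 0.09) and the histone chaperone NAP1L2 (3.04 ± 0.19) followed. PHEX, an endopeptidase of phosphate balance, rose by 2.89 ± 0.30, the cystine transporter subunit SLC7A11 by 2.80 ± 0.09, the inducible chaperone HSPA6 by 2.75 ± 0.22 and PIR, an NRF2 target, by 2.51 ± 0.13. FOSB, a further AP-1 subunit, rose by 2.51 ± 0.15 and IFI44, an interferon-induced gene, by 2.50 ± 0.18. Reads of AKR1C1, CXCL3, HSPA6, ferritin and ribosomal protein genes can be shared with near-identical copies, so their levels are less certain.

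Among genes (protein-coding where a biotype is given) with a mean of at least 2 CPM and no overlap between groups, the same limits as for the rises above, the largest falls were smaller than the largest rises and mostly in genes under 20 CPM. LAG3, an immune checkpoint receptor, lay at 1.29, 0.239, 0.858 and 1.48 CPM with CLA18:3 and at 4.88, 3.03, 2.97 and 3.27 CPM in DMSO, a fall by 1.85 ± 0.39 on the log2 scale (adjusted p = 0.00123). GDF6, a growth factor of the BMP family, fell by 1.84 ± 0.23, TBX10, a T-box factor, by 1.44 ± 0.18, and the thyroid hormone deiodinase DIO2 by 1.43 ± 0.32. COL1A1, the main chain of type I collagen, was the strongest of these in level. It lay at 152, 114, 127 and 154 CPM with CLA18:3 and at 326, 395, 402 and 393 CPM in DMSO, a fall by 1.47 ± 0.10 (adjusted p = 2.7e-06). TGFB2, a TGF-beta ligand, fell by 1.28 ± 0.07, and TSPAN2, SHISAL1, NUAK2, RIPK4, REL and ANKRD36C fell by 1.26 to 1.39 on the log2 scale. Another 3 of the 15 largest falls are listed by identifier only. Of the largest changes plotted here, none had overlapping groups, which their choice required.

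**Figure D2:**
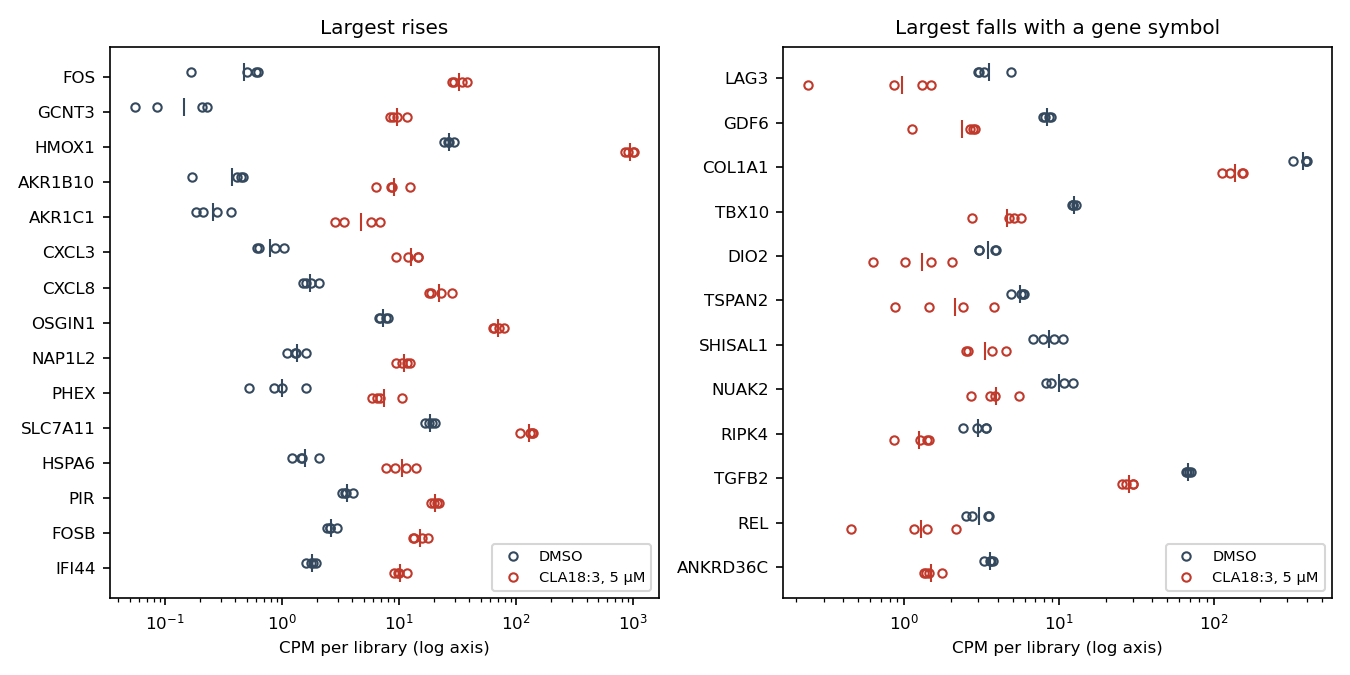
Level of each gene (CPM, log axis) in each of the 4 DMSO libraries (dark blue circles) and 4 CLA18:3 libraries (red circles), with bars at the group means. Left, the 15 largest rises, from FOS at 0.166 to 0.623 CPM in DMSO and 28.1 to 37.7 CPM with CLA18:3. Right, the 12 of the 15 largest falls with a gene symbol, where most DMSO levels are under 20 CPM and COL1A1 stands out at 326 to 402 CPM.

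The promoters of 6 genes that rose are printed as examples. They were picked among list members called higher whose promoter holds a short motif linked to these stress programmes. Each sequence is the 250 bases before the RefSeq start (GRCh38.p14), read 5′ to 3′ on the gene's strand, with the motif match in capitals. For the NRF2 programme the antioxidant response element TGACNNNGC is shown in GCLM (chr1:93909431-93909680, minus strand), ME1 (chr6:83431052-83431301, minus strand) and TXNRD1 (chr12:104215529-104215778, plus strand). GCLM limits glutathione synthesis with its partner GCLC, ME1 supplies NADPH, and TXNRD1 reduces thioredoxin.
GCLM: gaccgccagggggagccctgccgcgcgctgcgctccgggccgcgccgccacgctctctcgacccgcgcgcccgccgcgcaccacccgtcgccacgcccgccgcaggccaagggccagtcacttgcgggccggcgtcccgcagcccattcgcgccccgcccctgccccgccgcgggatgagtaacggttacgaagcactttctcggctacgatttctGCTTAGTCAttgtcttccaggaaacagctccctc
ME1: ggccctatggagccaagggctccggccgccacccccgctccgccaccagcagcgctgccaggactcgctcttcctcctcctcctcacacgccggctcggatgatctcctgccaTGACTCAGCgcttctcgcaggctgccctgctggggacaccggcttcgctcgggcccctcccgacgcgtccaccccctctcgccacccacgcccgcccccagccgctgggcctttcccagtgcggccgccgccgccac
TXNRD1: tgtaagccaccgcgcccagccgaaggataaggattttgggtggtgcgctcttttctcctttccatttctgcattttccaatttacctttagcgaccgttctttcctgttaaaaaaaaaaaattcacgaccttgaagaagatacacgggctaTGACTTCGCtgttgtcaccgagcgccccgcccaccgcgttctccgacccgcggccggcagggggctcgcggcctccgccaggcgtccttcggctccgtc
For the unfolded protein response, the ER stress element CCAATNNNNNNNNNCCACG is shown in HSPA5 (chr9:125241344-125241593, minus strand), the main ER chaperone.
HSPA5: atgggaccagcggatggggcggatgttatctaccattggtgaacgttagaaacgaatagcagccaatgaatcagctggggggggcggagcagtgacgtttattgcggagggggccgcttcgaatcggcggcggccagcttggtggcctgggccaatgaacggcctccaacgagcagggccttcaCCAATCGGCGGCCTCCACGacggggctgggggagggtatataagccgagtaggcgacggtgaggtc
For the ATF4 programme, the CARE core TGATGNAA is shown in CHAC1 (chr15:40953221-40953470, plus strand), which breaks down glutathione. For heat shock, GAANNTTC is shown in HSPA6 (chr1:161524290-161524539, plus strand), where it occurs at 2 places.
CHAC1: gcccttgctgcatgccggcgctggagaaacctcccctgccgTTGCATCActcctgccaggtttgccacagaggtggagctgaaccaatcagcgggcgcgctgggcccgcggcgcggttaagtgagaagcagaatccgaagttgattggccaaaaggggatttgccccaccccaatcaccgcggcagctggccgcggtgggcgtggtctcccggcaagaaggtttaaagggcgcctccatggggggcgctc
HSPA6: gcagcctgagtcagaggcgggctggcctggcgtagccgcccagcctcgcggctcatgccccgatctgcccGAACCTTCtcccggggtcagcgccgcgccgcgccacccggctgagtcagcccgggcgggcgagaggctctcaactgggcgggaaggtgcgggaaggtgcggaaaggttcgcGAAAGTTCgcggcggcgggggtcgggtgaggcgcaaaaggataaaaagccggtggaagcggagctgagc

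Both strands were searched, the matches shown in GCLM and CHAC1 are on the reverse strand, and TGACNNNGC can include the AP-1 site TGANTCA. Promoters were at hand for 10554 of the 15086 tested genes. The antioxidant response element was found in 12.1% of them, in 14.7% of genes that rose and 10.4% of genes that fell, and in 6 of 26 NRF2 targets with a promoter. It was in 5 of 30 promoters of the proteasome list, and in 3 of the 26 that rose (11.5%), near the 12.1% of all tested genes. The ER stress element was in 14 of the 10554 promoters, 10 of genes that rose and 0 of genes that fell, and in 7 of 29 promoters of the ER list. The heat shock motif was in 3.97% of promoters and in 7 of 22 of the heat shock list. The CARE core was in 1.43% of promoters and in 3 of 27 of the ATF4 list. The AP-1 site was in 4.15% of promoters, in 5.64% of genes that rose and 2.18% of genes that fell, and in 0 of 21 of the AP-1 list. A match is a description of the letters and shows no binding.

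NRF2 is a transcription factor held down by KEAP1 until its thiols are modified. NRF2 targets rose as a nearly complete list, with 32 of 35 tested genes higher and 0 lower, where 18.4% of all genes were higher. Their median log2 change was 0.97, beside 0.00 over all genes. The targets not past the threshold were the exporters ABCC2 (0.53) and ABCC3 (0.50) and UGDH (0.07), and these and other single list members that stand apart by their call are named after their values were seen. SLC7A11 brings in the cystine from which glutathione is made. It lay at 131, 137, 139 and 107 CPM with CLA18:3 and at 19.2, 18.2, 16.6 and 20.1 CPM in DMSO, a 6.97-fold rise (adjusted p = 9.1e-14). OSGIN1 lay at 64.7, 63.8, 78.1 and 72.2 CPM against 6.91, 7.75, 6.79 and 7.97 CPM. GCLM lay at 240.4, 248, 253 and 207 CPM against 77.7, 71.3, 71.1 and 75.5 CPM, a log2 change of 1.68 ± 0.06. In all 3 genes the lowest CLA18:3 library lay far above the highest DMSO library. NQO1, a quinone reductase, rose by 1.08 ± 0.07, TXNRD1 by 0.98 ± 0.04, and SRXN1, which repairs peroxiredoxins, by 0.89 ± 0.16 on the log2 scale. The repressor KEAP1 itself rose by 0.46 ± 0.05. With any single library left out 32 or 33 were higher, and 31 with library totals alone. Every list count against DMSO below stands beside the same shares over all genes, 18.4% higher and 16% lower.

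Genes of glutathione supply and use rose in 19 of 25 cases with 0 lower and a median log2 change of 0.64. Lists share members, so their counts are not separate results. SLC7A11 is also among the genes that restrain ferroptosis, HMOX1 and FTL are in the NRF2 and iron lists, and SQSTM1 is in the NRF2 and lysosome lists. CHAC1 opposes synthesis by cleaving glutathione, and it rose with the synthetic genes, from between 3.21 and 4.57 CPM in DMSO to 14.5, 12.9, 12.9 and 14.3 CPM (log2 change 1.88 ± 0.15, adjusted p = 2.5e-08). SLC3A2, the partner chain of SLC7A11, rose by 0.92 ± 0.04. In the thioredoxin and peroxiredoxin list 17 of 25 rose and 0 fell, with the methionine sulfoxide reductase MSRB1 at 1.03 ± 0.06 and superoxide dismutase SOD1 at 0.88 ± 0.04. NADPH-supplying genes were mixed, with 8 of 17 higher and 4 lower, where 18.4% and 16% of all genes were. TALDO1 (1.01 ± 0.04), ME1 (0.97 ± 0.06) and TKT (0.51 ± 0.03), enzymes of carbon flow that feed NADPH, led the rises.

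Of 21 iron genes 8 rose and 3 fell, where 18.4% and 16% of all genes did, and with library totals alone 6 were higher and 6 lower. The ferritin chains FTH1 and FTL, which store iron, rose by 1.41 ± 0.05 and 1.37 ± 0.03 on the log2 scale. FTL lay at 1431, 1456, 1534 and 1504 CPM with CLA18:3 and at 569, 583, 580.2 and 559.8 CPM in DMSO, with no overlap. TFRC, the transferrin receptor, lay at 1008 to 1040.1 CPM against 1063 to 1126 CPM and did not pass (log2 change -0.07, 95% interval -0.14 to -0.01, adjusted p = 0.0824), although its groups did not overlap. It passed with DESeq2 (adjusted p = 0.0296), limma voom (0.0444), upper quartile scaling (0.028), library totals alone (0.002) and a minimum of 2 CPM (0.0478), with a log2 change of -0.14 to -0.07. The iron exporter SLC40A1 was near the detection floor, at 0.135 to 2.09 CPM, and did not pass.

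Genes known to restrain ferroptosis rose in 11 of 22 cases and fell in 3, and genes known to promote it rose in 8 of 17 and fell in 3. Over all genes 18.4% rose and 16% fell, so the shares that fell, 13.6% and 17.6%, were near that of all genes. AIFM2, which keeps ubiquinone reduced at membranes, lay at 69.4, 66.9, 74.2 and 68.9 CPM with CLA18:3 and at 23.2, 26.2, 24.4 and 22.5 CPM in DMSO (log2 change 1.53 ± 0.07, adjusted p = 2e-11). GPX4 lay at 99.3, 103, 104 and 106 CPM against 78.2, 76.1, 83.1 and 82.6 CPM, a smaller rise of 0.37 ± 0.05 (adjusted p = 1.8e-05) in which the groups again did not overlap. The oxidoreductase CYB5R1 rose by 1.35 ± 0.06 and SAT1, a polyamine-acetylating enzyme, by 0.86 ± 0.08. ACSL4, which activates polyunsaturated acids for phospholipids, fell slightly, by 0.13 ± 0.04, and did not pass with DMSO replicate 4 left out or with the length trend removed. PTGS2, often used as a marker of ferroptosis, lay at 7.19, 9.03, 11.8 and 10.2 CPM against 6.44, 8.02, 7.21 and 8.64 CPM, and its groups overlapped (log2 change 0.33, 95% interval -0.01 to 0.67, adjusted p = 0.129). It passed with CLA18:3 replicate 1 left out (0.44 ± 0.15, edgeR adjusted p = 0.0298) and with replicates 1 and 2 both left out (0.53 ± 0.15, edgeR adjusted p = 0.0118).

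ATF4 is translated when the initiation factor eIF2 is phosphorylated and then drives amino acid and stress genes. In this list 22 of 32 rose and 1 fell, with a median log2 change of 0.59. ATF4 mRNA itself lay at 518, 558, 522 and 574 CPM with CLA18:3 and at 328, 318, 342 and 320.5 CPM in DMSO (log2 change 0.73 ± 0.04). The transcription factor DDIT3 rose further, to 11.2, 16.9, 14.6 and 17.3 CPM from 4.21, 3.39, 4.07 and 4.26 CPM (1.91 ± 0.16, adjusted p = 5.7e-08). PPP1R15A, which brings a phosphatase back to eIF2, rose by 1.62 ± 0.05, the secreted factor GDF15 by 1.36 ± 0.04 and the pseudokinase TRIB3 by 1.01 ± 0.06. The gene that fell was SLC7A1, a cationic amino acid transporter, by 0.28 ± 0.05. ASNS, asparagine synthetase, was too low to judge, at 0.0959 to 1.71 CPM in both groups together. Aminoacyl-tRNA synthetases, which charge tRNAs, rose in 13 of 21 cases with 0 lower. GARS1 had the smallest p (0.60 ± 0.04), and CARS1 the largest change (0.86 ± 0.15). Serine and one-carbon genes rose in 8 of 20 and fell in 3, with PSAT1 at 0.44 ± 0.05 and the methionine adenosyltransferase MAT2A at -0.51 ± 0.05.

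ER chaperones and unfolded protein response genes rose in 27 of 32 cases. The only 1 of this list that fell was CREB3L2 (-0.17), an ER-bound transcription factor. HSPA5 lay at 2555, 2566, 2578 and 2540.5 CPM with CLA18:3 and at 1069, 1082, 1043 and 1034 CPM in DMSO, a 2.42-fold rise with little spread in either group (log2 change 1.28 ± 0.03, adjusted p = 1e-15). Its co-chaperone DNAJB9 lay at 54.8, 62.3, 61.3 and 48.4 CPM against 14.7, 17.4, 15.3 and 14.2 CPM (1.87 ± 0.09). SELENOK, a selenoprotein of the ER membrane, rose by 1.31 ± 0.06. Cytosolic heat shock genes rose in 21 of 25 cases with 0 lower and a median of 0.41. HSPA6, which is almost silent without stress, lay at 9.16, 7.69, 13.8 and 11.4 CPM against 2.08, 1.47, 1.49 and 1.22 CPM. The abundant chaperones HSPA8 (0.58 ± 0.03), HSPH1 (0.56 ± 0.05), HSP90AA1 (0.53 ± 0.04) and DNAJB1 (0.41 ± 0.04) rose less than 1.5-fold. Metallothioneins and zinc transporters had 4 of 13 higher and 1 lower, with MT2A, a metal-binding protein, at 0.41 ± 0.03.

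The proteasome degrades ubiquitin-tagged proteins, and its genes moved as a block. Of 36 subunit and assembly genes 31 rose and 0 fell, with a median log2 change of 0.67 and a range of -0.09 to 0.95. The core subunit PSMB2 lay at 387, 395, 394 and 412 CPM with CLA18:3 and at 223, 226, 222 and 219 CPM in DMSO (0.84 ± 0.04, adjusted p = 1.2e-11). PSMA5, also of the core, rose by 0.85 ± 0.04 and PSMD14, the deubiquitinase of the cap, by 0.75 ± 0.04. The genes not past the threshold were PSMA2 (0.27), the assembly factors PSMG1 (0.00), PSMG2 (0.13) and PSMG3 (0.10), and the transcription factor NFE2L1 (-0.09). With each of the other scalings 1 of the 36 was lower. Lysosome and autophagy genes rose in 28 of 44 cases and fell in 2, TFEB (-0.77) and ATG9A (-0.31). SQSTM1, an autophagy receptor and NRF2 target, lay at 1030.2, 945, 1046 and 1039.7 CPM with CLA18:3 and at 257, 268, 264 and 241 CPM in DMSO (1.98 ± 0.04). The lysosomal enzymes GLA and CTSD rose by 1.65 ± 0.07 and 1.28 ± 0.06.

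Where a list is given above with 0 lower by edgeR's adjusted p, DESeq2 also called 0 lower, except 1 in the proteasome list. At an unadjusted edgeR p under 0.05, the NRF2, glutathione, synthetase and heat shock lists had 0 lower, the thioredoxin list 2 and the proteasome list 1.

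**Figure D3:**
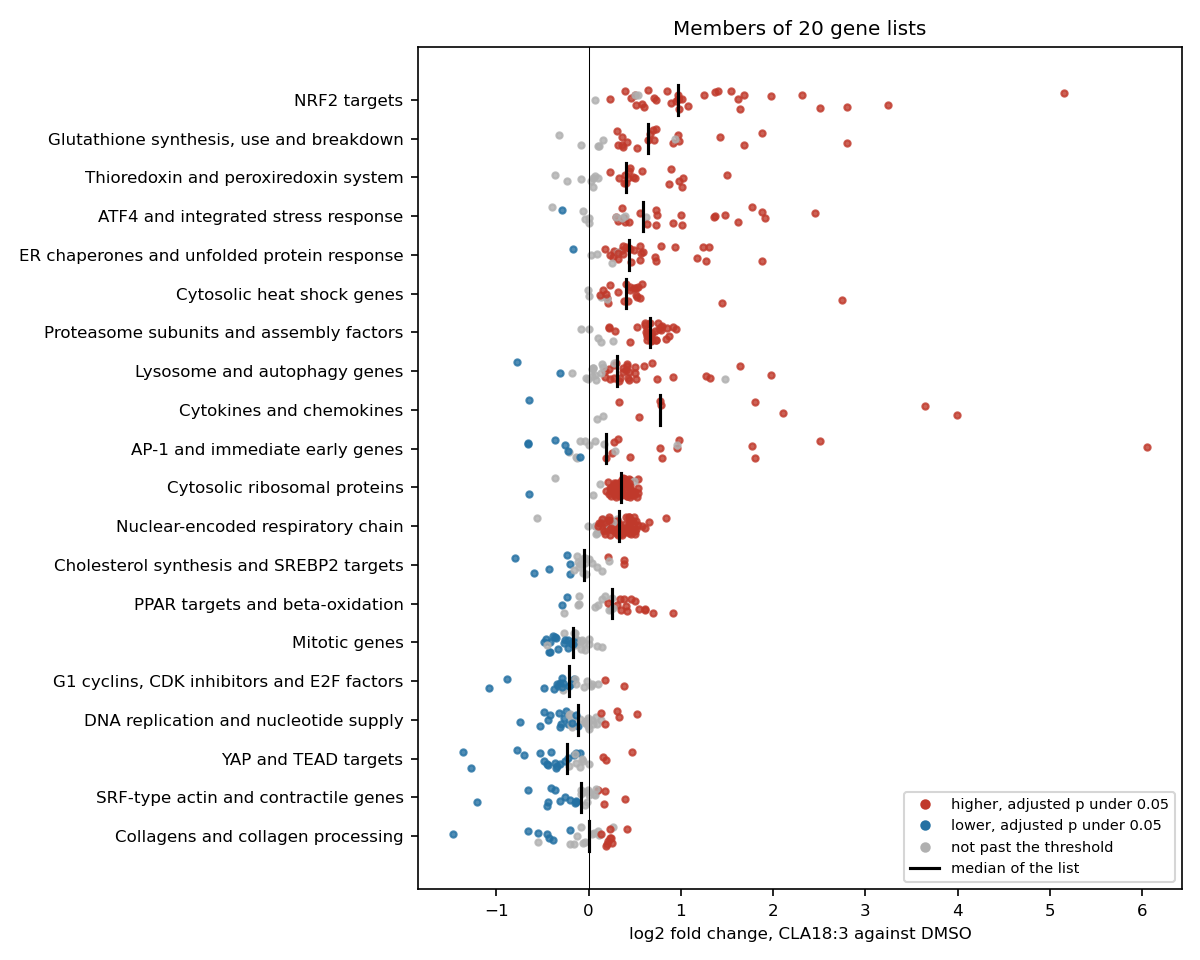
Each point is the log2 fold change (x axis, CLA18:3 against DMSO) of 1 tested gene in 1 of 20 lists (y axis), red where higher and light blue where lower at adjusted p under 0.05 and grey otherwise, with a black line at the list's median. The stress, proteasome, ribosomal and respiratory lists lie to the right of 0, and the cell cycle and YAP lists lean to the left, with smaller changes.

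AP-1 and immediate early genes did not move together, with 13 of 29 higher and 6 lower. Of 34 listed, 5 had too few counts to be tested, and FOS entered only by its counts with CLA18:3. The share that rose is therefore not independent of the filter. Beside FOS and FOSB, EGR1, a zinc finger factor of growth signalling, lay at 10.9, 8.08, 9.44 and 10.1 CPM with CLA18:3 and at 3.01, 2.93, 2.33 and 2.77 CPM in DMSO (1.80 ± 0.17). ATF3, a stress-induced partner of AP-1, lay at 53.6, 54.1, 56.9 and 58.4 CPM against 16.2, 17.5, 14.4 and 17.3 CPM (1.77 ± 0.08, adjusted p = 1.8e-11). The abundant subunits JUN (0.25 ± 0.04) and FOSL1 (0.28 ± 0.04) rose little. The phosphatase DUSP1 was at 0.19 ± 0.07 (adjusted p = 0.0442), its groups overlapped, and it did not pass without CLA18:3 replicate 1 or 4 or without any 1 DMSO library. It also did not pass by edgeR with upper quartile scaling (adjusted p = 0.0709), library totals alone (0.188) or no low-count filter (0.079). With the length trend removed DUSP1 was at 0.05 ± 0.07 (edgeR adjusted p = 0.614). Of 24 cytokines and chemokines listed, 11 had enough counts to be tested and 13 did not. Of the 11, 8 rose, where 18.4% of all genes did, and the 1 that fell was IL11 (-0.65). A member almost silent in DMSO could enter only by its counts with CLA18:3, so this share is not independent of the filter. CXCL8, a chemokine for neutrophils, lay at 18.9, 22.7, 28.2 and 17.9 CPM against 1.61, 1.51, 2.08 and 1.77 CPM. IL1A (2.11), IL1B (1.80), TNFSF9 (0.79), CCL20 (0.77), CSF1 (0.55) and LIF (0.33) also rose. NF-kappaB genes were mixed, with 7 of 22 higher and 4 lower (18.2%, near the 16% of all genes), and the inhibitor NFKBIA rose by 1.0 ± 0.08. EGF family genes had 4 of 9 lower, among them the ligands NRG1 (-0.37 ± 0.04) and HBEGF (-0.22 ± 0.05). In the interferon list 5 of 25 rose (20%), near the 18.4% of all genes, and these were IFI44, IFIT1 (0.84), IFIT3 (0.84 ± 0.15), IFI6 (0.72) and STAT2 (0.43 ± 0.10). In the same list 0 fell, where 16% of all genes did, and the median log2 change was 0.36. At an unadjusted edgeR p under 0.05, 10 of the 25 were higher and 0 lower. p53 targets rose in 10 of 25 cases and fell in 2, where 18.4% and 16% of all genes did. CDKN1A, an inhibitor of cyclin-dependent kinases, lay at 662 to 706 CPM against 504 to 537 CPM (0.39 ± 0.04), and MDM2, the p53 inhibitor, at 0.16 ± 0.05 had overlapping groups and did not pass without replicate 2 or 3 of either group. With library totals alone MDM2 also did not pass (0.09 ± 0.05, edgeR adjusted p = 0.158).

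Ribosomal protein genes rose by a small amount. Of 78 cytosolic members 73 rose and 1 fell (RPL36A, -0.64), with a median log2 change of 0.36. RPL11 lay at 1123, 1101, 1059 and 1099 CPM with CLA18:3 and at 743, 764, 768 and 765 CPM in DMSO (0.53 ± 0.03, adjusted p = 9.2e-10). As a share of all counts these genes took 6.77 ± 0.143% with CLA18:3 and 5.55 ± 0.0951% in DMSO, without overlap (exact permutation p = 0.0286, adjusted p = 0.0476). Nuclear-encoded respiratory chain genes rose in 63 of 73 cases with 0 lower and a median of 0.33, among them UQCRH of complex III (0.46 ± 0.04) and COX6C of complex IV (0.61 ± 0.08). Mitochondrial ribosomal proteins rose in 28 of 44 with 0 lower and a median of 0.24, and in 19 with library totals alone. Both of these lists also had 0 lower by DESeq2 and at an unadjusted edgeR p under 0.05. Mitochondrially encoded mRNAs, the partners of those respiratory genes, did not pass in either direction in any of 13 cases with edgeR, and 0 passed with DESeq2 or at an unadjusted edgeR p under 0.05. Their share of counts was 0.356, 1.23, 1.63 and 1.64% in the 4 CLA18:3 libraries and 1.26% to 1.49% in DMSO, so replicate 1 stood far below. With CLA18:3 replicates 1 and 2 left out, 7 of the 13 were higher and their median moved from -0.20 to 0.24. Ribosome biogenesis genes had 4 of 33 higher and 12 lower, the latter including the nucleolar protein NCL (-0.18 ± 0.03) and UBTF, a factor of ribosomal RNA transcription (-0.40 ± 0.05).

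Lipid synthesis genes changed little. Of 24 genes of cholesterol synthesis and its regulator SREBP2, 3 rose, EBP (0.39 ± 0.08), PMVK (0.38 ± 0.08) and NSDHL (0.21), and 6 fell. HMGCS1, an early enzyme of the pathway, lay at 154, 144, 159.7 and 149 CPM with CLA18:3 and at 206, 205, 200.4 and 207 CPM in DMSO (-0.43 ± 0.04, adjusted p = 3.4e-07). INSIG1, a sterol-responsive regulator, lay at 112 to 124 CPM against 119 to 127 CPM and did not pass (95% interval -0.15 to 0.06). Fatty acid synthesis genes had 4 of 23 higher (17.4%) and 5 lower (21.7%), near the shares over all genes, with the desaturase SCD at -0.26 ± 0.04 and ACLY, which makes cytosolic acetyl-CoA, at -0.26 ± 0.04. PPAR targets and beta-oxidation genes rose in 14 of 28 cases, where 18.4% of all genes did, and fell in 2, PPARD (-0.23) and ECI1 (-0.29). CPT1A, the gate of mitochondrial fatty acid import, lay at 11.7, 13.3, 14.4 and 11.7 CPM against 9.40, 11.2, 9.33 and 8.42 CPM, without overlap (0.41 ± 0.13, adjusted p = 0.0197), and did not pass without CLA18:3 replicate 3 or without any 1 of DMSO replicates 1, 3 and 4. HSD17B4, an enzyme of peroxisomal oxidation, rose by 0.61 ± 0.06. NPC1, which moves cholesterol out of lysosomes, rose by 0.92 ± 0.05, and GPAT3, of triacylglycerol synthesis, by 0.82 ± 0.09.

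Cell cycle genes fell modestly. Among G1 cyclins, CDK inhibitors and E2F factors 13 of 23 fell and 2 rose, CDKN1A and CCND3 (0.17). E2F8, a repressing E2F, lay at 6.76, 7.79, 8.15 and 6.06 CPM with CLA18:3 and at 14.3, 14.7, 16.2 and 15.5 CPM in DMSO (-1.08 ± 0.13, adjusted p = 3.5e-06). Replication genes fell in 14 of 37 cases and rose in 5, beside 16% of all genes lower. UHRF1, which carries DNA methylation through replication, lay at 118, 98.2, 105 and 116 CPM against 186, 187, 176 and 181 CPM (-0.74 ± 0.06). Mitotic genes fell in 19 of 35 cases with 0 higher and a median of -0.17, while 2 were higher at an unadjusted edgeR p under 0.05 and 1 by DESeq2. Cyclin CCNA2 lay at 149.9, 159, 164 and 156 CPM against 219, 226, 215 and 217 CPM (-0.48 ± 0.04), while CCNB1, which drives entry into mitosis, lay at 247 to 278 CPM against 251 to 271 CPM with overlapping groups (95% interval -0.08 to 0.10). Cyclin CCND1 was at -0.16 ± 0.04.

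TGF-beta pathway, SRF-type and YAP target genes were lower more often than higher, while the collagen and metalloproteinase lists were not with the main scaling. Integrins, laminins and matrix glycoproteins had 9 of 34 lower and 4 higher, and 17 lower and 3 higher with library totals alone. Over all genes 16% were lower and 18.4% higher with the main scaling. With the length trend removed 6 of the 34 were lower and 5 higher, where 14.8% and 16.9% of all genes were. YAP and TEAD targets, read out when cells are spread and under tension, had 18 of 28 lower and 3 higher with a median log2 change of -0.24. NUAK2, a kinase, fell by 1.36 ± 0.20 and AJUBA, an adhesion scaffold, by 0.70 ± 0.05, while the usual marker genes ANKRD1 (0.47 ± 0.04) and CCN2 (0.19 ± 0.03) rose, though CCN2 did not pass with the length trend removed (0.06 ± 0.03, edgeR adjusted p = 0.189). The third that rose was WWTR1 (0.16). Actin and contractile genes of the SRF type had 12 of 27 lower and 4 higher, with the focal adhesion protein VCL at -0.45 ± 0.04. TGF-beta pathway genes had 8 of 27 lower and 4 higher, INHBE (2.75), BMP2 (0.59), BAMBI (0.47) and ID1 (0.16). TGFB2 lay at 30.1, 30.3, 25.6 and 27.3 CPM with CLA18:3 and at 66.6, 69.7, 71.4 and 67.1 CPM in DMSO (adjusted p = 2.2e-10), and the signal carrier SMAD3 fell by 0.83 ± 0.06. THBS1, a matrix glycoprotein that activates TGF-beta, lay at 2723, 2503, 2525 and 2365 CPM against 5037, 5116, 5252 and 5672 CPM, a fall by 1.06 ± 0.04 (adjusted p = 3e-12). Collagens and their processing enzymes had 9 of 28 higher and 7 lower, and 6 higher and 9 lower with library totals alone. With the length trend removed 9 were higher and 4 lower. Among those lower with the main scaling were COL1A1, COL5A1 (-0.65 ± 0.05) and COL4A1 (-0.45 ± 0.03). Matrix metalloproteinases and inhibitors had 9 of 18 higher and 2 lower, with the inhibitor TIMP1 at 0.77 ± 0.04 and the urokinase receptor PLAUR at 0.71 ± 0.04. Of the epithelial marker list 4 of 12 could be tested, GRHL2 was at 0, and the list's summed level was 722 to 771 CPM with CLA18:3 and 825 to 889 CPM in DMSO, where KRT8, a keratin, fell by 0.25 ± 0.04.

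Genes with a long summed exon length were lower more often than genes with a short one. This length counts each exon base of all annotated transcripts of a gene once, and is not the length of a single mRNA. Of the 2967 genes with the shortest summed exon length, 59 to 2271 bases, 21.5% were higher and 3.84% lower. Of the 2963 with the longest, 7924 bases and over, 12.5% were higher and 29.1% lower. Across 14824 genes with a length, the log2 change and the length had a Spearman rho of -0.19, and with GC content -0.01, as a description over genes, which are not replicates. Single CLA18:3 libraries against the DMSO mean had a rho of -0.13 to -0.22 and single DMSO libraries against the other DMSO libraries -0.12 to 0.16. With each library's length trend removed, 2509 genes were higher (16.9%) and 2194 lower (14.8%). There the NRF2 list had 33 of 35 higher, the proteasome list 30 of 36, the ER list 28 of 32, the cytosolic ribosomal list 71 of 78, and the respiratory chain list 52 of 73, while mitochondrial ribosomal proteins went from 28 to 20 of 44 higher and their median from 0.24 to 0.14, and mitotic genes had 22 of 35 lower. Chromatin and transcription regulators with long transcripts, 17 of 32 lower and 3 higher before, had 12 lower and 3 higher after. Zinc finger genes of the ZNF family, 61 of 382 lower and 22 higher, had 52 lower and 20 higher. The 61 were 16% of the family, the same share as over all genes, while the 22 were 5.76%, beside 18.4% over all genes.

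**Figure D4:**
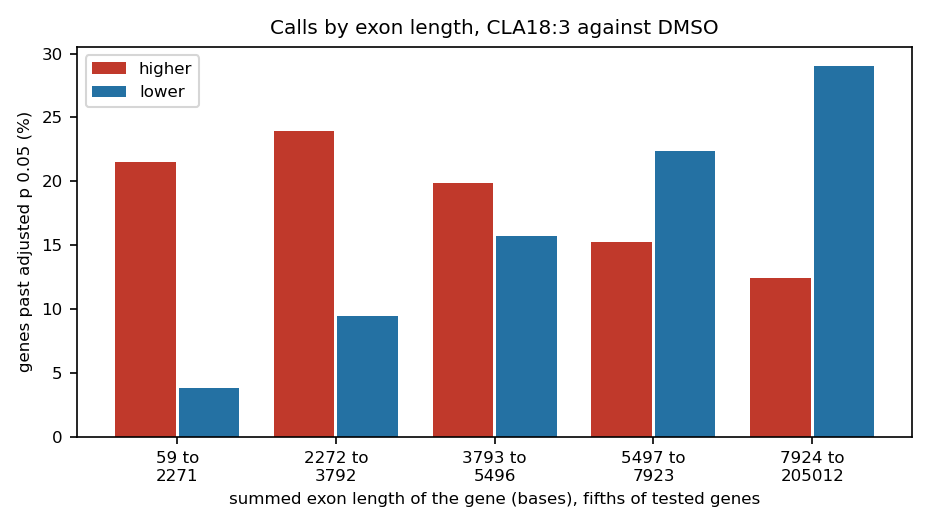
Percent of tested genes past adjusted p 0.05 (y axis) that were higher (red) or lower (light blue) with CLA18:3, in 5 classes of summed exon length (x axis, bases). The share lower rises from 3.84% in the shortest class to 29.1% in the longest, and the share higher falls from 21.5% to 12.5%.

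CLA18:2 carries 2 conjugated double bonds where CLA18:3 carries 3, and it was given at 80 µM where CLA18:3 was given at 5 µM. The compound and the dose therefore cannot be told apart, and the values are set side by side for what each treatment gave. Between the treatments 4486 of 14882 genes differed at adjusted p under 0.05 (30.1%), of which 2207 were higher with CLA18:3 (14.8%) and 2279 lower (15.3%). With library totals alone 1680 were higher and 2886 lower. HMOX1 had its highest mean of all 7 groups with CLA18:3, at 960.2 ± 77.0 CPM (SD, n = 4, scaled over 28 libraries), beside 742 ± 61.3 CPM with RSL3 and CLA18:2 together, whose libraries it did not overlap, 321 ± 37.2 CPM with CLA18:2, 133 ± 15.4 CPM with RSL3 and 26.9 ± 2.23 CPM in DMSO. Its difference from CLA18:2 was 1.57 ± 0.07 on the log2 scale (adjusted p = 1.3e-10). FOS lay at 32.9 ± 4.54 CPM with CLA18:3 and at 2.50 ± 0.28 CPM with CLA18:2, a difference of 3.70 ± 0.14, while RSL3 with CLA18:2 reached 62.4 ± 3.51 CPM. ATF3 (1.44 ± 0.08), FOSB (1.95 ± 0.17) and CHAC1 (0.68 ± 0.14) were also higher with CLA18:3. Of 35 NRF2 targets 3 were higher than with CLA18:2, HMOX1, TKT (0.29 ± 0.04) and thioredoxin TXN (0.21), and 14 were lower. SQSTM1 was lower by 0.78 ± 0.04, SLC7A11 by 0.60 ± 0.08 and GCNT3 by 1.12 ± 0.13. For OSGIN1 (-0.01 ± 0.07), GCLM (-0.01 ± 0.06), HSPA5 (-0.06 ± 0.03) and GDF15 (-0.03 ± 0.04) no difference was found, which does not show that the treatments act alike.

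Lipid and growth genes also differed between these treatments. Cholesterol genes were higher with CLA18:3 than with CLA18:2 in 21 of 24 cases, where 14.8% of all genes were. INSIG1 lay at 121 ± 5.85 CPM with CLA18:3, close to the 124 ± 3.79 CPM of DMSO, and at 50.8 ± 3.34 CPM with CLA18:2 (difference 1.24 ± 0.06). SCD lay at 354 ± 18.1 CPM and 141 ± 3.92 CPM (1.32 ± 0.05). CPT1A lay at 12.95 ± 1.32 CPM with CLA18:3 and at 56.3 ± 2.77 CPM with CLA18:2 (-2.13 ± 0.09, adjusted p = 1.8e-12), and the hypoxia gene NDRG1 at 100.1 ± 5.62 CPM and 208 ± 19.0 CPM. Replication genes were higher with CLA18:3 in 31 of 37 cases, mitotic genes in 25 of 34 and SRF-type actin genes in 21 of 27. THBS1 lay at 2568 ± 158 CPM with CLA18:3, 1312 ± 87.3 CPM with CLA18:2 and 5324 ± 276 CPM in DMSO. GPX4 was at 105 ± 2.55 CPM with CLA18:3 and 80.7 ± 5.99 CPM with CLA18:2, where DMSO had 80.8 ± 3.44 CPM. Cytosolic ribosomal proteins were higher with CLA18:3 than with CLA18:2 in 74 of 78 cases. Chromatin and transcription regulators with long transcripts were higher in 1 of 32 cases and lower in 25. The length trend was not removed between these treatments, so its part in these list counts was not tested. ITGA2, a collagen-binding integrin, was lower by 1.10 ± 0.09 and TGFB2 higher by 1.02 ± 0.11.

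**Figure D5:**
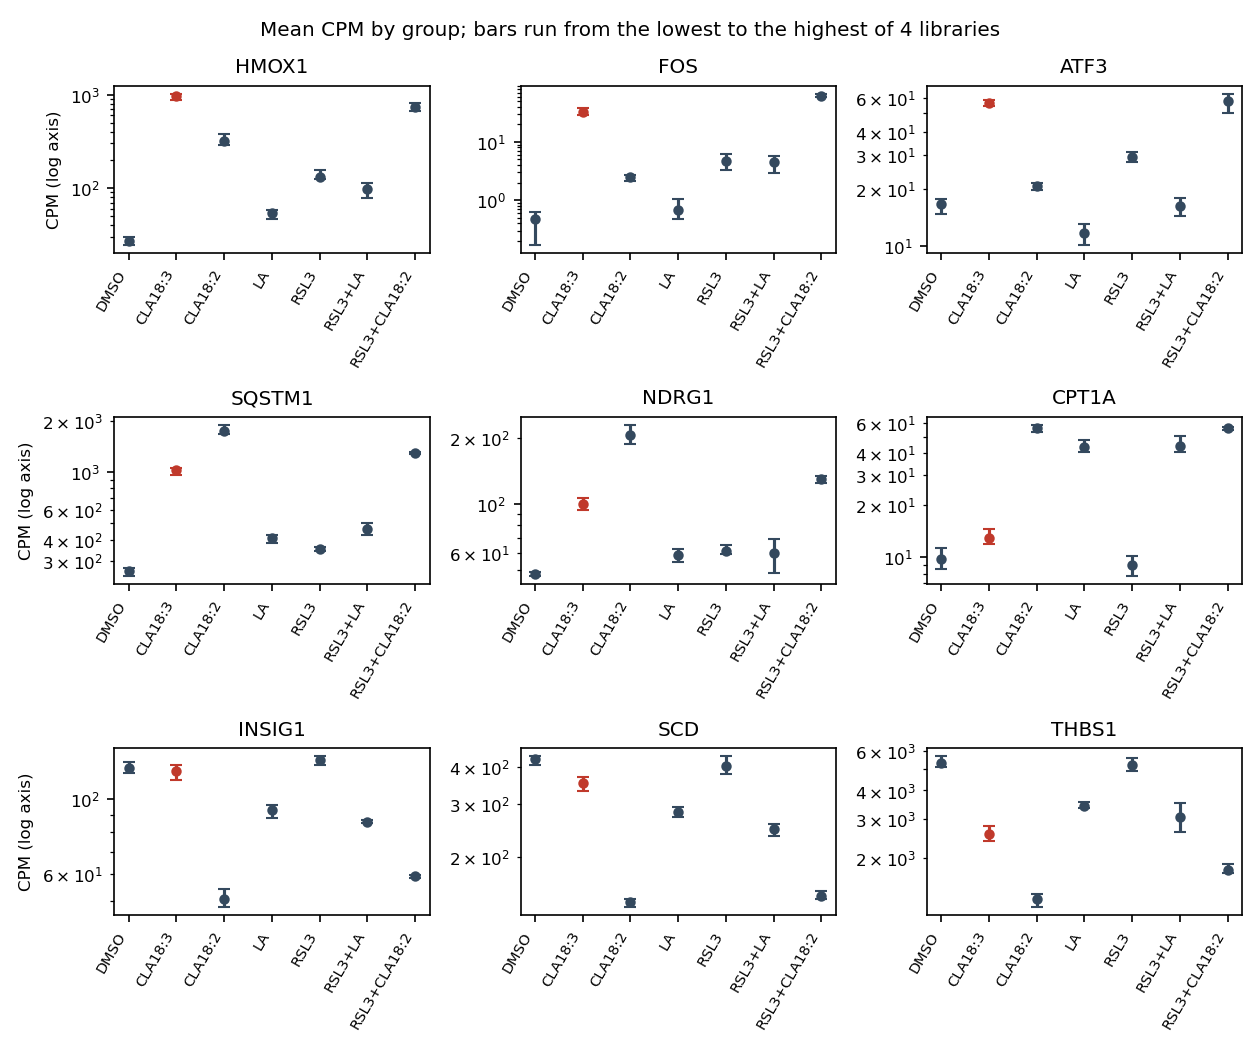
Level of 9 genes (y axis, CPM, log axis) in the 7 groups of the series (x axis). Points are means of 4 libraries and bars run from the lowest to the highest library, with CLA18:3 in red. HMOX1 is highest with CLA18:3, at 868 to 1026 CPM, and INSIG1 and CPT1A with CLA18:3 lie nearer to DMSO than to CLA18:2.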

How the data were processed

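RNA-seq libraries of HT-1080 cells were compared as 4 CLA18:3 against 4 DMSO libraries, with groups taken from the sample labels. The deposited values are raw counts per gene. Per the submitters' processing notes the authors used HISAT, SAMtools, featureCounts and DESeq2 with hg38, and versions, annotation and strandedness are not given in the sources used here, so overlapping and antisense genes are uncertain. The counts were tested as deposited with edgeR 4.0.16 in R 4.3.3 (TMM scaling, filterByExpr, robust quasi-likelihood F test, Benjamini-Hochberg threshold 0.05), which kept 15086 of 60286 genes and about 99.9% of each library's counts. A log2 fold change is given with its SE and a 95% interval. The 8 libraries held 17687170 to 23075684 counts, so genes at a few counts are imprecise. CLA18:3 was compared with CLA18:2 in the same way. Library measures were tested by two-sided exact permutation. Alternatives used limma 3.58.1, DESeq2 1.42.0, other scalings and filters, and left-out libraries. Removing the length trend, leaving out CLA18:3 replicates 1 and 2 together, and a minimum of 20 CPM were added after the data were seen.

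The comparison, the 57 fixed genes and the 61 gene lists were chosen with earlier results of these data known. Beside the fixed genes, the text names genes from the 15 largest changes each way (adjusted p under 0.05, groups not overlapping, mean of at least 2 CPM, protein-coding where a biotype is given) and the 3 called members of smallest p in each list. Results for some genes of the lists are not reported here. Exon lengths and biotypes came from GENCODE 29 and promoters from RefSeq (GRCh38.p14), matched by symbol, with a length for 14824 genes and a promoter for 10554. Libraries with the same replicate number did not deviate together (correlations of -0.05 to -0.0008), so the numbers were not taken to pair them. The p-values measure the spread between these libraries only. The scripts were tested on simulated data before use. Software for plots was matplotlib 3.10.9 under Python 3.11.15.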

Additional observations from a re-analysis of the deposited data

Results flagged for a closer look

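In each group of 4 libraries the highest or lowest library was looked at where its gap to the nearest other, as a share of the group's range, exceeded Dixon's 95% critical value. Of 402 groups of named genes and library measures 24 stood out in this way (5.97%), and chance gives about 1 in 20. DMSO replicate 4 accounted for 8, DMSO replicate 1 for 6, CLA18:3 replicate 4 for 4, DMSO replicate 3 and CLA18:3 replicate 2 for 2 each, DMSO replicate 2 and CLA18:3 replicate 3 for 1 each, and CLA18:3 replicate 1 for 0.

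Among CLA18:3 libraries, replicate 2 held SQSTM1 at 945 CPM (others 1030.2 to 1046) and CBR1, a carbonyl reductase, at 79.3 CPM (67.7 to 69.6). Replicate 3 held the acyl-CoA synthetase ACSL1 at 32.6 CPM (27.2 to 27.8). Replicate 4 held GDF6 at 1.12 CPM (2.64 to 2.84), the lysosomal phospholipase PLA2G15 at 52.9 CPM (57.0 to 57.7), UBTF at 148 CPM (128 to 129.8) and the glycolytic enzyme PKM at 3149.6 CPM.

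Among DMSO libraries, replicate 1 held RPL11 at 743 CPM (764 to 768), COL1A1 at 326 CPM (393 to 402), LAG3 at 4.88 CPM (2.97 to 3.27), the phospholipase PNPLA8 at 32.9 CPM (27.7 to 28.5), the TNF receptor TNFRSF1A at 145 CPM and the calponin CNN2 at 445 CPM (420 to 424). Replicate 2 held ASNS at 1.10 CPM (0.467 to 0.571). Replicate 3 held HSPH1 at 198 CPM (212 to 215) and CTSD at 62.3 CPM (56.1 to 57.0). Replicate 4 held TFRC at 1126 CPM, SELENOK at 42.3 CPM (46.2 to 46.9), the acyltransferase GPAM at 31.8 CPM (30.2 to 30.3), the arginine transporter SLC7A2 at 92.8 CPM (79.3 to 81.0), the cytokinesis gene ANLN at 369 CPM (345 to 347), COL4A1 at 3335 CPM (3177 to 3202) and the ubiquitin ligase UBR4 at 184 CPM. It also had the 50 highest genes at 14.5% of counts, where the other 3 had 14.2%.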

How the results depend on the processing

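Against DMSO, 5178 genes passed. The count was 4262 to 4326 with any 1 DMSO library left out and 5062 to 5376 with any 1 CLA18:3 library left out. It was 5453 with DESeq2, 5272 with limma voom and 4750 with a replicate block. The edgeR fit used a single spread per gene for both groups, and limma voom with a separate weight per group passed 5283. Tested against a fold of 1.5, 263 passed, 213 higher and 50 lower. With library totals alone 39.4% of the calls were higher, against 53.5%. Against CLA18:2, 4486 genes passed, with 3639 to 4344 in the leave-one-out fits, 4553 with the replicate block and, against a fold of 1.5, 72 (35 higher, 37 lower). There 36.8% of the calls were higher with library totals alone, against 49.2%.

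With the replicate block the exact p, which cannot go below 0.125 there, was 0.125 for the differences in detected genes (-3544.25), in the ribosomal protein share (1.22 percentage points) and in the share of the 50 highest genes (0.438). Asking for 5 counts per gene left a difference of -36.25 detected genes (exact p = 0.543). Leaving out single libraries gave 0.378 to 0.503 percentage points for the 50 highest genes, with an exact p of 0.0571 without CLA18:3 replicate 1, 3 or 4. The mitochondrial mRNA share differed by -0.333 to 0.0949 percentage points, and it was above DMSO only without CLA18:3 replicate 1 (exact p = 0.571). The cause was not tested.

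Of 4337 results of named genes against DMSO under all alternatives 0 changed direction past the threshold, and 153 lost their call, 124 of them in the test against a fold of 1.5. The block changed no call of a named gene against DMSO but DUSP1 (adjusted p = 0.0597). Genes under 2 CPM vary most and are the least certain.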
